A study of Mus musculus with 20 samples.

Results

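The genes of glucose breakdown were followed through the reprogramming of mouse fibroblasts, with and without knockdown of Ddx10, an RNA helicase of the DEAD-box family. The set holds 36 genes, chosen by symbol from a list of glucose transporters, hexokinases, glycolytic enzymes, enzymes of fructose 2,6-bisphosphate, the mitochondrial pyruvate carrier, pyruvate dehydrogenase and its kinases, and the pentose phosphate pathway. All 36 were among the 15757 genes of the table, and the rule that picks them uses symbols only. Every one passed the filter on low values, which removed 0 genes of the table.

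The cells were passage 2 embryonic fibroblasts of OG2 mice, a strain whose cells turn on green fluorescent protein with the Oct4 gene. All groups, day 0 included, carry the label OSKM, the retroviral reprogramming factors Oct4, Sox2, Klf4 and Myc, and were grown in iCD1 medium. The control arm received an shRNA against luciferase (shLuci) and the knockdown arm an shRNA against Ddx10, and RNA was taken from each at days 0, 1, 3, 5 and 7. Every combination of arm and day, 10 groups in all, was sequenced in 2 libraries of messenger RNA from whole cultures (20 libraries). Whether several hairpins were used, and the embryonic age, are not given in the sources used here. No label says that the replicates came from separate cultures, so the p-values refer to the spread among these libraries alone, which may be technical. In such bulk samples, fewer cells of a type and less RNA per cell cannot be told apart.

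Glycolysis splits glucose to pyruvate in the cytosol, and most of its steps can be carried out by several isozymes that differ between tissues. Pyruvate then enters the mitochondrion through a carrier made of Mpc1 and Mpc2 and is oxidized by the pyruvate dehydrogenase complex, which the 4 Pdk kinases switch off by phosphorylation, or it is reduced to lactate. The pentose phosphate pathway branches off after the hexokinase step and yields NADPH and ribose for nucleotides. Dividing cells in culture and pluripotent stem cells are known for high rates of glycolysis, and pluripotent cells for keeping much pyruvate out of oxidation.

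Levels are normalized read counts as deposited. Fold changes were computed as log2(value + 1), a scale that understates the change of low genes. Library sums were 20.1 to 21.3 M at day 0 and 15.7 to 15.8 M at day 7, so directions along the days were also computed after quantile scaling and after scaling every library to the same sum. The number of libraries per group, 2, limits the precision. The members are well covered: 31 of 36 lay above the median level of all genes, and the median standard error of a single-day log2 fold change was 0.11 over the members and 0.16 over all genes. Ddx10 itself stood at 500 to 921 in the control libraries and at 255 to 530 in the knockdown libraries, both knockdown libraries of each day below both controls of that day. Averaged over the days its log2 fold change was -0.9995 ± 0.0520 (SE; limma adjusted p = 5.851e-08). The 12 fibroblast markers summed to 641463 to 668762 in the control libraries of day 0 and to 101281 to 104483 at day 7. The 12 pluripotency markers went from 55.3 to 63.2 at day 0, with Utf1 at 0, to 19854 to 20572 at day 7. Macrophage markers (11 of 12 in the table) summed to 2662 to 3903 in the controls of day 0 and to 271 to 297 at day 1. A gene was called when its limma p, adjusted over all 15757 genes (Benjamini-Hochberg), was under 0.05.

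Sequences before the starts of the 5 members called lower in the knockdown at day 7 (Aldoc, Tpi1, Slc2a1, Pgk1 and G6pdx) are shown. The day 7 calls of Aldoc and Tpi1 held in every fit that left out a library, and those of Slc2a1, Pgk1 and G6pdx did not. By the gene annotation, the sequences of G6pdx and of the downstream Aldoc start lie inside the gene. The sequences of Tpi1, Slc2a1 and the upstream Aldoc start reach into it. Each run is the 250 bases before a RefSeq start (GRCm38.p6), 5′ to 3′ on the gene's strand, and capitals mark ACGTG on either strand, the core of the hypoxia response element.
Aldoc, the upstream start, chr11:78322823-78323072, plus strand: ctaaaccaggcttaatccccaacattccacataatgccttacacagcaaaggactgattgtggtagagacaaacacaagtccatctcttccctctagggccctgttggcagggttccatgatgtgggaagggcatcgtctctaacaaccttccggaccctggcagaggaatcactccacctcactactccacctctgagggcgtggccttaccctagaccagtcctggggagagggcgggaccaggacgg
Aldoc, the downstream start, chr11:78323948-78324197, plus strand: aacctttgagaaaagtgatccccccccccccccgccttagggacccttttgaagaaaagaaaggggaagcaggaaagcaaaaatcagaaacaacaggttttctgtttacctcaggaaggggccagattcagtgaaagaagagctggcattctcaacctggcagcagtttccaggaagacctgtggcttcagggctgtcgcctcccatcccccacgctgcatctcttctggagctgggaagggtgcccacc
Tpi1, chr6:124814159-124814408, minus strand: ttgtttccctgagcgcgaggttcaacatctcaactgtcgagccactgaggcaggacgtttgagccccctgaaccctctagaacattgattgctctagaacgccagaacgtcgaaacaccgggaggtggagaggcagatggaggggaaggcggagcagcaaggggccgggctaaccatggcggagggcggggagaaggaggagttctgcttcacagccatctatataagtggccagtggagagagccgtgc
Slc2a1, chr4:119108495-119108744, plus strand: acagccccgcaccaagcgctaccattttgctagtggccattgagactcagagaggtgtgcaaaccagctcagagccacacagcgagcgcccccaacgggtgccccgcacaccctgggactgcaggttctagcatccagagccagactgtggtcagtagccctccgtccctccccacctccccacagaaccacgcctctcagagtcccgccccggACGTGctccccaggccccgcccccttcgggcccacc
Pgk1, chrX:106186850-106187099, plus strand: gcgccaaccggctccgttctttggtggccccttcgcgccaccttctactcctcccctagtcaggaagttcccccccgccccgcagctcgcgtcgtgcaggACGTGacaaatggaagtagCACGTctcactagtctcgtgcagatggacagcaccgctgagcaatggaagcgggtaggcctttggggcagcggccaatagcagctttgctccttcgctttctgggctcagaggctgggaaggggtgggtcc
G6pdx, chrX:74428881-74429130, minus strand: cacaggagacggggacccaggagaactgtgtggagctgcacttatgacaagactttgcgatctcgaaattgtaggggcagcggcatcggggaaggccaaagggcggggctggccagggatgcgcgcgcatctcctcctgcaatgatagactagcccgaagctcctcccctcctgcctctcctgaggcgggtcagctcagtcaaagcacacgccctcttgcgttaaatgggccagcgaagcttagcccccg
Slc2a1 holds 1 match and Pgk1 holds 2 in these windows. The letters ACGTG stood in the window of 12 of 35 member genes with a promoter entry (34.3%) and of 24% of 11342 genes of the table. Counted over promoters, 16 of 52 from members (30.8%) and 20.5% of 14486 from genes of the table held them. The other member genes with a match were Hk2, Pfkm, Aldoa, Pfkfb2, Pfkfb3, Pgam1, Pkm, Pdhb, Pdk2 and Pdk3. The E-box CACGTG, which contains ACGTG and reads the same on both strands, stood in 4 of 35 member genes (11.4%) and in 9.51% of the genes of the table. A match describes these letters and is not evidence of binding.

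The course of the control arm answers how the members moved as the fibroblasts were reprogrammed. At day 7 against day 0, 23 of 36 members were called, 8 higher and 15 lower, where 72.3% of all genes were called, 38.6% higher and 33.7% lower. At day 1, 25 members were called, 7 higher and 18 lower, beside 55% of all genes (28.3% higher, 26.7% lower). At day 3 there were 28, 8 higher and 20 lower, beside 66.2% (34.9 and 31.3%). At day 5 there were 27, 9 higher and 18 lower, beside 70.2% (37.7 and 32.5%). As shares of the 36 members these counts are 63.9% at day 7 and 69.4, 77.8 and 75% at days 1, 3 and 5, above the share of all genes at the 3 earlier days and below it at day 7. The median log2 fold change of the members at day 7 was -0.15 and that of all genes 0.09. Scaling decided the balance of directions: at day 7 the split was 16 higher and 10 lower after quantile scaling, and 20 higher and 11 lower with equal library sums. At day 1 it was 9 and 12, then 12 and 12; at day 3 it was 11 and 14, then 14 and 12; at day 5 it was 13 and 9, then 18 and 9. The median of all genes at day 7 itself moved from 0.09 to -0.08 and to 0.51 under these scalings. Of the 23 members called at day 7, 22 were called in every fit that left out a library (all but Tpi1), and 17 kept call and direction under both scalings: 8 rose (Slc2a3, Aldoc, Pfkfb2, Eno2, Pdk1, Pdk2, G6pdx and Pgd) and 9 fell (Pfkl, Pgk1, Pgam1, Eno3, Mpc2, Pdk3, Pdk4, Pgls and Taldo1). A member named below as not called refers to the values as deposited.

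**Figure D1:**
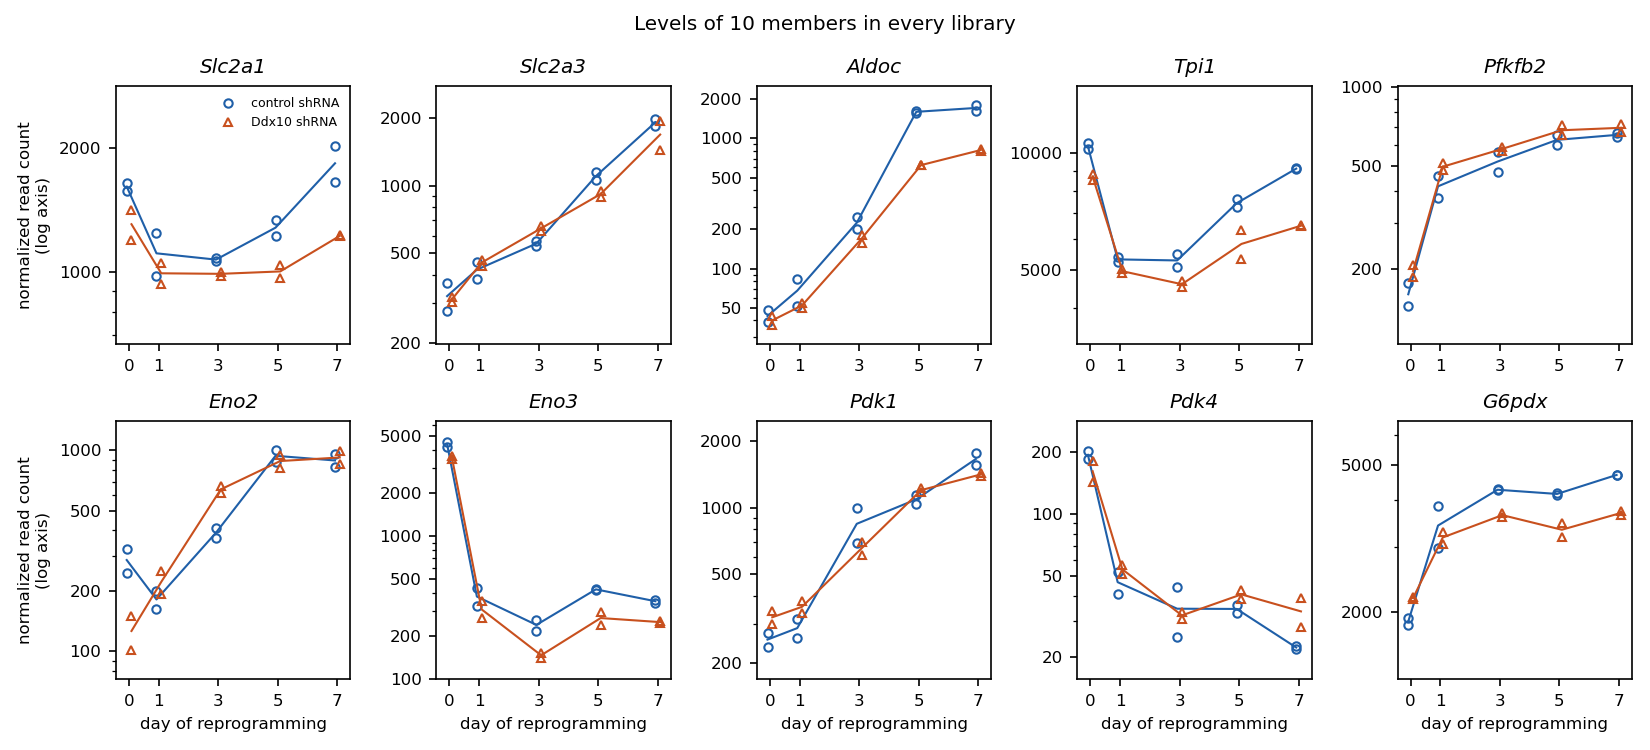
Normalized read counts (log axis) of 10 members against the day of reprogramming. Circles are control shRNA libraries and triangles Ddx10 shRNA libraries, 2 per day and arm, and lines join the group means. Aldoc climbs from 38.7 and 47.7 to 1808 and 1625 in the control and reaches 833 and 796 in the knockdown, while Eno3 and Pdk4 drop between days 0 and 1 in both arms.

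Among the glucose transporters, Slc2a3 rose and gained share. Per kilobase of all annotated exons (3506 bases for Slc2a1, 7245 for Slc2a3), Slc2a1 remained the more abundant of the pair. That order depends on the lengths used. In counts, the 2 genes overlapped in the controls of day 7. In the knockdown of day 7, Slc2a3 read 1928 and 1439, above the 1226 and 1219 of Slc2a1. Slc2a1 (GLUT1, the basal transporter of most cells; mm10 chromosome 4, 119108711 to 119137983) read 1647 and 1575 in the 2 control libraries of day 0, 1243 and 975 at day 1, 1078 and 1063 at day 3, 1335 and 1225 at day 5, and 2021 and 1650 at day 7. Slc2a3 (GLUT3, a transporter with high affinity for glucose; chromosome 6, 122727809 to 122801640) read 370 and 277, then 387 and 460, 540 and 565, 1145 and 1057, and 1975 and 1842 on the same days. Slc2a1 dipped and came back, so that day 7 did not pass the test against day 0, while Slc2a3 stood above day 0 in both libraries of every later day. The log2 fold change of Slc2a3 at day 7 was 2.57 ± 0.14 (SE; limma adjusted p = 1.241e-10). Per kilobase of exon, Slc2a3 made up 9.80 and 7.84% of the 2 transporters in the controls of day 0 and 32.1 and 35.1% at day 7. In the knockdown libraries of day 7 its share was 43.2 and 36.4%. Such a share within a family is the same when all values of a library are multiplied by 1 factor, as with equal sums, but not after quantile scaling. The hexokinases Hk1 and Hk2, which trap glucose in the cell by phosphorylation, had log2 fold changes of 0.16 and 0.10 at day 7 and were not called.

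In upper glycolysis, where 6-carbon sugars are rearranged and cut, isozymes parted. Aldoc (aldolase C, the aldolase typical of brain; chromosome 11, 78322968 to 78327781) read 38.7 and 47.7 in the controls of day 0, 83.7 and 51.8 at day 1, 248 and 203 at day 3, 1628 and 1578 at day 5, and 1808 and 1625 at day 7. No other member rose as much, with a log2 fold change of 5.29 ± 0.19 (SE; limma adjusted p = 6.862e-13), and most of the climb fell between days 3 and 5. Aldoa, the aldolase of most tissues, nevertheless stayed the more abundant of the 2 at every day. Per kilobase of exon Aldoc made up 0.134 and 0.177% of the pair at day 0, 1.64 and 1.31% at day 3, and 9.23 and 8.89% at day 7.

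Pfkl, the liver-type phosphofructokinase, went from 3684 and 3229 to 1410 and 1458 at day 1 and was at 1769 and 1577 at day 7 (log2 fold change -1.05 ± 0.09, SE). The other subunits of this rate-setting enzyme, Pfkm and Pfkp, were not called at day 7. Per kilobase, the share of Pfkl among the 3 went from 52.2 and 51.6% at day 0 to 36.3 and 34.3% at day 7. Tpi1, which interconverts the triose phosphates (chromosome 6, 124810586 to 124814296), dipped and partly came back: its control libraries read 10574 and 10200 at day 0, 5410 and 5258 at day 1, 5490 and 5111 at day 3, 7596 and 7255 at day 5, and 9087 and 9115 at day 7. The direction of Tpi1 at day 7 depended on scaling, with -0.19 as deposited, 0.43 after quantile scaling and 0.24 with equal sums. Aldoa (-0.69, or 0.34 after quantile scaling) was scaling-dependent too. Gpi1, the isomerase of glucose 6-phosphate, was not called as deposited (-0.13).

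Among the enzymes that make and break fructose 2,6-bisphosphate, the activator of phosphofructokinase, Pfkfb2 rose and Pfkfb3 and Pfkfb4 were not called. Pfkfb2 read 176 and 144 in the controls of day 0, 375 and 458 at day 1, 564 and 472 at day 3, 657 and 598 at day 5, and 669 and 642 at day 7 (log2 fold change 2.03 ± 0.12, SE; limma adjusted p = 5.46e-10). The increase came early: both libraries of day 1 already exceeded both of day 0. Its share of the 3 genes per kilobase went from 12.7 and 11.4% to 36.3 and 36.3%.

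In lower glycolysis, which makes ATP on the way from glyceraldehyde 3-phosphate to pyruvate, 6 of 7 members were called lower at day 7 and 1, Eno2, higher. Eno3 (the muscle-type enolase; chromosome 11, 70657202 to 70662513) read 4570 and 4218 in the controls of day 0, then 431 and 323, 260 and 217, 426 and 420, and 342 and 357 on the later days. Both libraries of day 1 were already far below day 0, and the log2 fold change amounted to -3.65 ± 0.15 at day 7 (SE; limma adjusted p = 4.26e-12). Eno2 (the enolase typical of neurons) read 323 and 246 at day 0, 200 and 163 at day 1, 367 and 412 at day 3, 1003 and 878 at day 5, and 824 and 959 at day 7, a log2 fold change of 1.65 ± 0.19 (SE). Eno1, the common enolase, made up 70.8 and 69.1% of the 3 enolases per kilobase at day 0 and 94.2 and 93.6% at day 1, as the share of Eno3 went from 28.4 and 30.2% to 4.95 and 5.43%. The size of these shares depends on the annotated exon lengths, 5379 bases for Eno1 and 1739 for Eno3. In counts, Eno1 read 35238 and 29856 in the controls of day 0, beside 4570 and 4218 for Eno3. By day 7 Eno2 accounted for 5.55 and 6.54% and Eno3 for 6.22 and 6.60%. The 3 muscle markers in the table summed to 969 to 1381 in the controls of day 0, 265 to 308 at day 1 and 33.9 to 39.3 at day 7. The 6 neural markers summed to 6998 to 7512, 8032 to 8426 and 6403 to 6677 at these days. A sum follows its most abundant genes and hides the others. Of the 9 muscle and neural markers, 5 were called higher and 3 lower in the control at day 7, with log2 fold changes from -6.12 to 6.44. Of all genes, 38.6% were called higher and 33.7% lower. Their part in the enolase levels was not tested.

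Pgk1 and Pgam1, the kinase and mutase of 3-phosphoglycerate, fell with log2 fold changes of -1.08 and -1.30 at day 7. Pgk1 (chromosome X, 106187100 to 106203699) went from 18049 and 18164 at day 0 to 8400 and 9933 at day 1, 7106 and 6703 at day 3, 7646 and 7221 at day 5, and 8921 and 8170 at day 7. For Gapdh (-0.75 as deposited, 0.71 after quantile scaling) and Pkm, the pyruvate kinase of most cells (-0.52, or 0.82), the direction turned with the scaling, and the fall of Eno1 (-1.13) did not pass after quantile scaling. Gapdh, Pgk1 and Eno1 share stretches of at least 300 bases at 95% identity or more with other genes, in the table Gm3839, Pgk1-rs7 and Eno1b, so their counts may be split or merged. Such a stretch was found for 13 members in all, 6 of which share it with a gene in the table, and the same limit holds for them. For Pfkp and Pdha1 that gene, Pitrm1 and Map3k15, overlaps their exons on the opposite strand. There the stretch may be the overlap itself and not a copy. Tpi1, Pgam1 and Pkm are among those that share it only with genes outside the table.

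**Figure D2:**
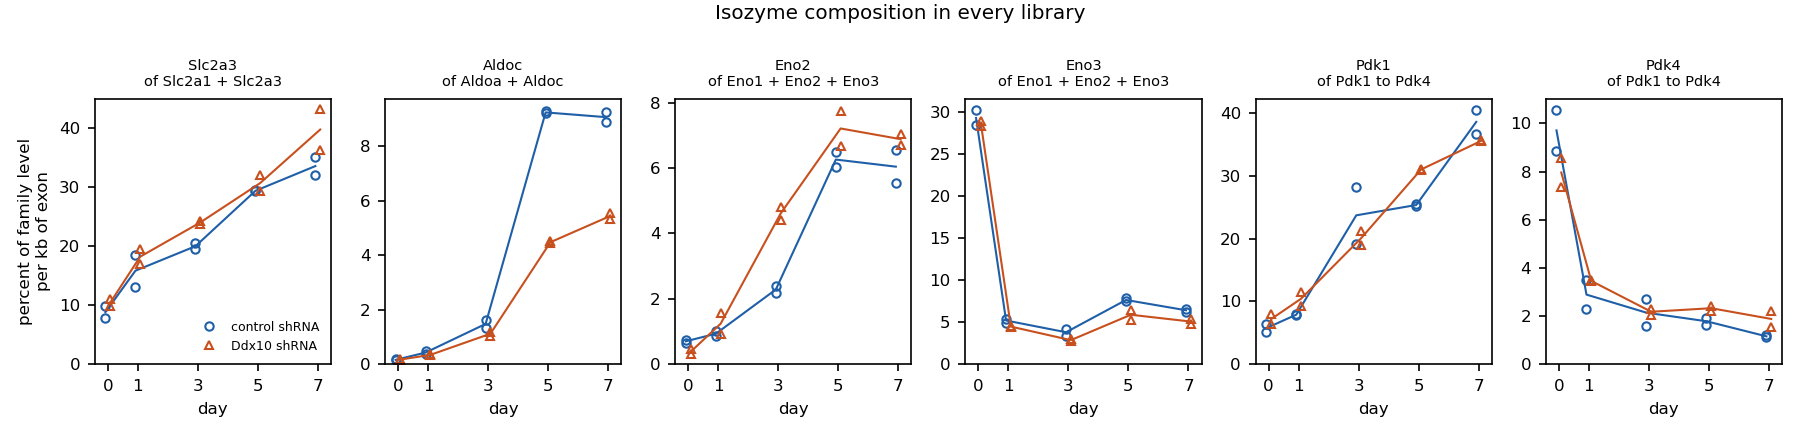
Share of 6 isozymes in the summed level of their family, per kilobase of all annotated exons, against the day of reprogramming (linear axes from 0). The size of a share depends on these annotated lengths. Circles are control libraries, triangles Ddx10 shRNA libraries, and lines join the means of 2. Slc2a3, Aldoc, Eno2 and Pdk1 take growing shares while Eno3 and Pdk4 shrink, and the share of Aldoc at day 7 is 9.23 and 8.89% in the control and 5.54 and 5.33% in the knockdown.

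At the entry to the mitochondrion, as deposited, all 4 kinases of pyruvate dehydrogenase were called at day 7 and none of the 3 genes of the complex itself. The kinases kept call and direction under both scalings. Equal sums raise the values of day 7 relative to day 0, so the absence of a call for the complex refers to the values as deposited. Pdha1 and Pdhb, the subunits of the E1 enzyme, and Dlat, the E2 subunit, were not called at day 7, nor was the carrier gene Mpc1. Mpc2, its partner, read 459 and 618 in the controls of day 0, then 336 and 313, 275 and 257, 332 and 370, and 281 and 282 on the later days (log2 fold change -0.92 ± 0.13, SE). Pdk1 (chromosome 2, 71873224 to 71903858) read 272 and 236 at day 0, 259 and 313 at day 1, 689 and 1001 at day 3, 1136 and 1043 at day 5, and 1759 and 1554 at day 7. Its log2 fold change was 2.70 ± 0.15 (SE; limma adjusted p = 1.768e-10).

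Pdk2, a widely expressed kinase of the family, read 238 and 201 at day 0, 93.1 and 119 at day 1, 246 and 223 at day 3, 418 and 382 at day 5, and 312 and 348 at day 7 (0.59 ± 0.15, SE). Pdk4, the kinase known for its induction in fasting, read 204 and 186, 52.4 and 40.7, 44.0 and 25.1, 32.8 and 36.1, and 21.9 and 22.7 on these days (-3.07 ± 0.26, SE). Pdk3 fell by 0.86 on the log2 scale. Per kilobase of exon, Pdk3 held 69.4 and 75.4% of the 4 kinases in the controls of day 0 and 40.7 and 41.9% at day 7. The share of Pdk1 went from 6.36 and 5.09% to 40.5 and 36.7%, and that of Pdk4 from 10.6 and 8.88% to 1.12 and 1.19%. The annotated exon length is 7779 bases for Pdk1 and 2561 for Pdk3. In counts, Pdk3 read 583 and 584 in the controls of day 7, below the 1759 and 1554 of Pdk1.

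In the pentose phosphate pathway, both NADPH-making dehydrogenases rose, and none of the 4 others was called higher as deposited. G6pdx (glucose 6-phosphate dehydrogenase, which commits glucose to the pathway; chromosome X, 74409483 to 74429194) read 1924 and 1840 in the controls of day 0, 3869 and 2971 at day 1, 4288 and 4260 at day 3, 4180 and 4147 at day 5, and 4689 and 4683 at day 7. Pgd, the second dehydrogenase of the pathway, read 5709 and 5200, 7734 and 6816, 7348 and 7121, 7679 and 7410, and 7610 and 7395. Both were above day 0 in both libraries of every later day, with log2 fold changes of 1.32 ± 0.09 for G6pdx and 0.46 ± 0.08 for Pgd at day 7 (SE). Pgls, the lactonase between them, and Taldo1, the transaldolase, fell by 0.89 and 0.63 on the log2 scale. Tkt, the transketolase that returns pentoses to glycolysis, read 5524 and 5397 at day 0, 4990 and 4198 at day 1, 3855 and 3544 at day 3, 4518 and 4389 at day 5, and 4358 and 4395 at day 7, and its fold change of -0.32 as deposited became 0.08 after quantile scaling and 0.11 with equal sums. Rpia, the isomerase of ribose 5-phosphate, was not called.

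**Figure D3:**
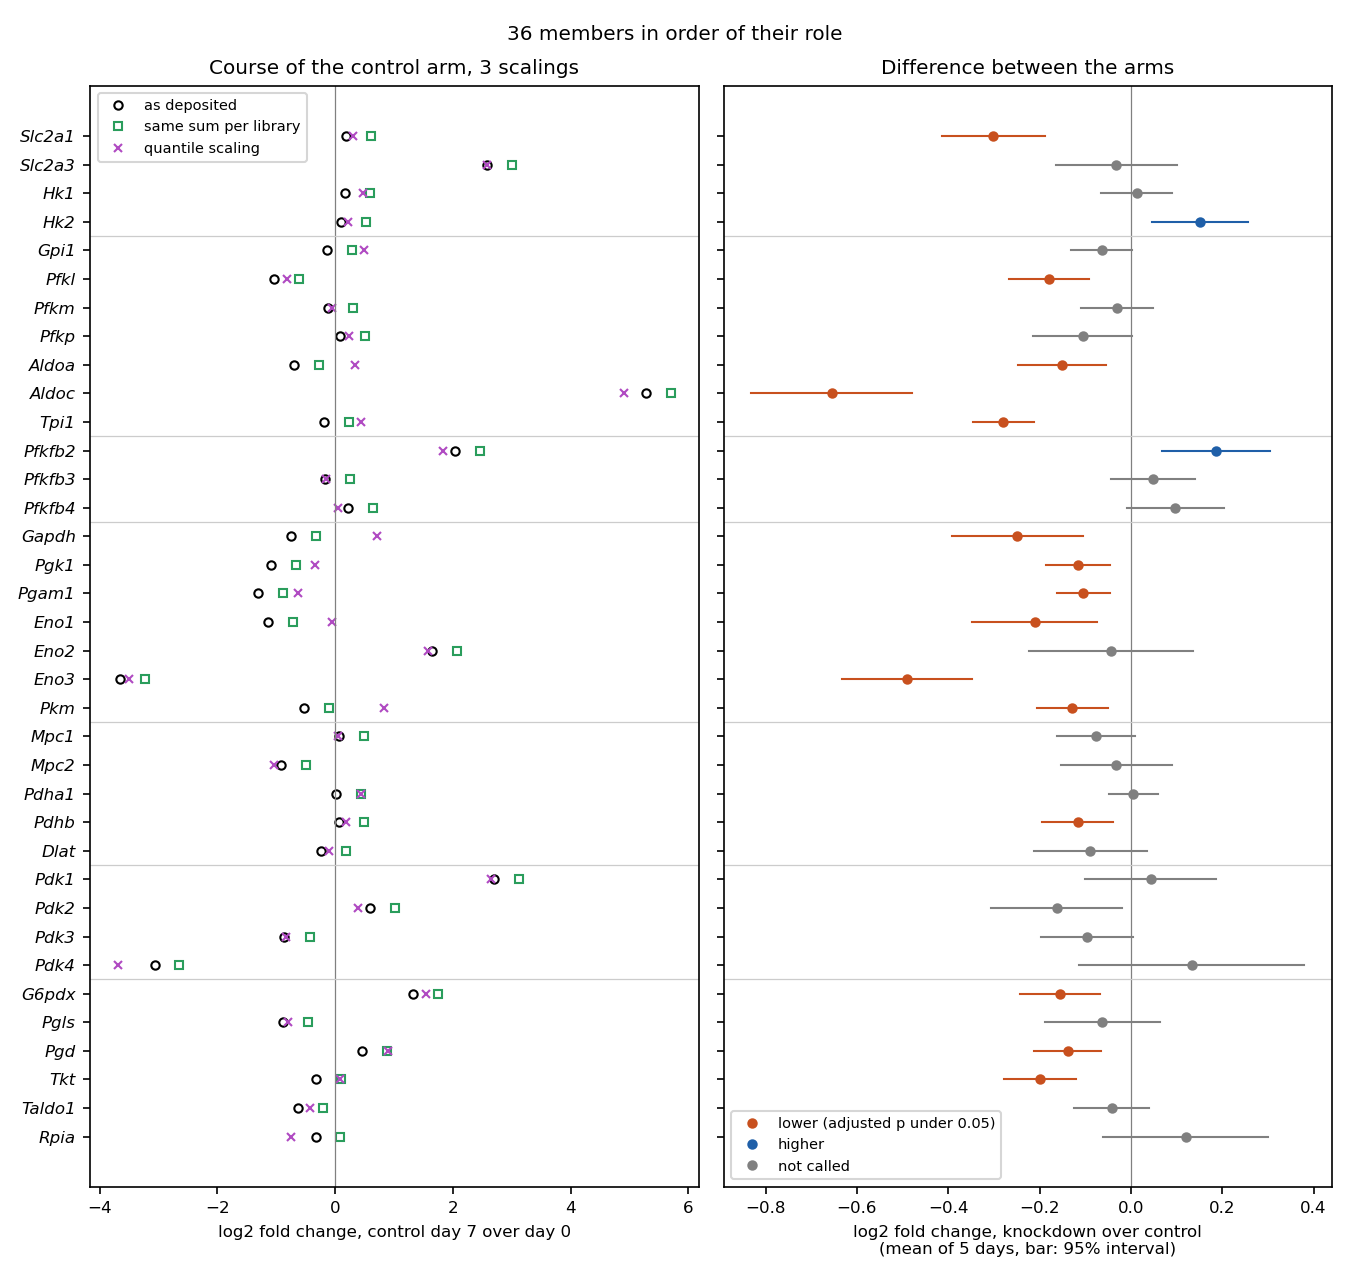
Log2 fold changes of the 36 members in order of role. The left panel gives control day 7 over day 0 as deposited (circles), with equal library sums (squares) and after quantile scaling (crosses); the right panel gives knockdown over control as the mean of 5 days with 95% intervals, colored where the adjusted p was under 0.05. Aldoc at 5.29 and Eno3 at -3.65 mark the ends of the left panel, and 15 of the 17 colored members of the right panel lie below 0.

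The comparison of the arms gives the difference between cells with the Ddx10 shRNA and cells with the control shRNA, the cause of which was not tested. As the mean of all days, 17 of 36 members were called, 2 higher (Hk2 and Pfkfb2) and 15 lower, where 17.8% of all genes were called, 10.3% higher and 7.46% lower. The differences were small: 14 of the 15 lower members lay between -0.10 and -0.49, and Aldoc was at -0.65. The median of the members was -0.09 and that of all genes 0.00. Lower calls covered upper glycolysis (4 of 7), lower glycolysis (6 of 7) and the pentose phosphate pathway (3 of 6), while no Pdk kinase was called. The median standard error here was 0.05 over the members and 0.07 over all genes. Of the 17, 10 were called in every fit that left out 1 library and under every other alternative: Slc2a1, Pfkl, Aldoc, Tpi1, Gapdh, Pgam1, Eno3, G6pdx, Pgd and Tkt. The other 7 (Hk2, Aldoa, Pfkfb2, Pgk1, Eno1, Pkm and Pdhb) lost the call in 7 to 16 of the left-out fits. Pgk1 lost it also under quantile scaling (limma adjusted p = 0.08757) and equal sums (0.0547), and Pkm under quantile scaling (0.1395). Hk2 lost it with the replicate block (limma adjusted p = 0.05772) and library weights (0.06699), and Pdhb with equal sums (0.07813), the replicate block (0.05069) and the block nested in day (0.06088). Among the left-out fits, 10 members were called when knockdown replicate 1 of day 5 was left out, and 11 when either knockdown replicate 2 of day 1 or knockdown replicate 1 of day 7 was.

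Fibroblast and pluripotency markers also differed between the arms, not in the same way on every day. At day 0 the fibroblast markers summed to 540010 to 563653 in the knockdown and 641463 to 668762 in the control libraries, and the pluripotency markers overlapped (49.96 to 62.76 and 55.3 to 63.2). At day 1 both sums overlapped, with 273028 to 273592 and 251983 to 277048 for fibroblast and 662 to 770.5 and 723 to 772 for pluripotency markers. At day 3 the fibroblast sums were 157706 to 168777 and 127350 to 133515, and the pluripotency sums 4514 to 4738 and 6089 to 6708. At day 5 the fibroblast markers summed to 138529 to 140371 in the knockdown and 115774 to 133853 in the control libraries, and at day 7 to 106210 to 123268 and 101281 to 104483. The pluripotency markers summed to 12193 to 13037 and 17056 to 18371 at day 5, and to 16796 to 17720 and 19854 to 20572 at day 7. Gene by gene, 11 of the 12 pluripotency markers had negative fold changes at day 5 and 10 at day 7. Of the 12, 1 was called higher and 2 lower at day 5, and 1 higher and 0 lower at day 7. Of the 12 fibroblast markers, 6 were called higher and 0 lower at day 5, and 5 and 0 at day 7. Of all genes, 5.83% were called higher and 2.9% lower at day 5, and 4.65 and 1.52% at day 7. No marker of either list was at 0 in both libraries of a group at days 5 and 7; so listed were Utf1 in both arms and Zfp42 and Lin28a in the knockdown at day 0, Dppa5a, Lin28a and Utf1 in both arms at day 1, and Dppa5a in both arms at day 3. Their part in the differences between the arms was not tested.

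Counted by library, both knockdown libraries stood below both controls for 20 of 36 members at day 0 (55.6%, against 27.5% of all genes), 5 at day 1 (13.9% against 18.1%), 12 at day 3 (33.3% against 24.7%), 23 at day 5 (63.9% against 29.4%) and 22 at day 7 (61.1% against 27.6%). The reverse, both above, held for 5, 4, 6, 4 and 5 members (13.9, 11.1, 16.7, 11.1 and 13.9%, against 22.8, 16.6, 28.7, 27.1 and 28.6% of all genes). On at least 4 of the 5 days, 7 members were below (19.4%, against 4.35% of all genes) and 1, Pfkfb2, was above (2.78% against 4.92%). Tpi1 was below on all 5 days, and Slc2a1, Pfkl, Gapdh, Eno1, Eno3 and Tkt on 4. These counts use the values as deposited. At day 0 the knockdown libraries had smaller sums (20.12 and 20.33 M) than the controls (21.26 and 20.83 M). With equal sums, the day 0 median log2 fold change of the members went from -0.109 to -0.052. That of all genes went from -0.017 to 0.025.

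Tpi1 read 8536 and 8835 in the knockdown libraries of day 0, 5036 and 4915 at day 1, 4685 and 4531 at day 3, 5356 and 6328 at day 5, and 6520 and 6485 at day 7. From day 3 to day 7 the mean went from 4608 to 6502 in the knockdown and from 5301 to 9101 in the control, a difference in change that was not tested. The log2 fold change was -0.35 ± 0.07 at day 5 and -0.48 ± 0.07 at day 7 (SE; limma adjusted p = 0.005084 and 0.0006398), and -0.28 ± 0.03 as the mean of all days. The day 7 call held whichever library was left out. That of day 5 was lost when replicate 1 of the control (limma adjusted p = 0.07134) or of the knockdown (0.09876) was left out.

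Aldoc read 36.7 and 43.3 in the knockdown libraries of day 0, 54.3 and 50 at day 1, 182 and 157 at day 3, 628 and 621 at day 5, and 833 and 796 at day 7. The arms overlapped at days 0 and 1 (with the controls at 38.7 and 47.7, then 83.7 and 51.8), and the knockdown was lower on each later day. The log2 fold change was -1.36 ± 0.19 at day 5 and -1.07 ± 0.19 at day 7 (SE; limma adjusted p = 0.0003384 and 0.002503), and both calls held in every alternative. Per kilobase, Aldoc made up 4.52 and 4.43% of the 2 aldolases in the knockdown at day 5, and 9.20 and 9.27% in the control.

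Slc2a1 read 1194 and 1416 in the knockdown libraries of day 0, 1050 and 933 at day 1, 1001 and 976 at day 3, 968 and 1036 at day 5, and 1226 and 1219 at day 7. All 4 values of days 5 and 7 lay below the control libraries of their day, with a log2 fold change of -0.58 ± 0.12 between the arms at day 7 (SE; limma adjusted p = 0.007846). That call was lost when control replicate 1 (limma adjusted p = 0.1331) or replicate 2 of the knockdown (0.0704) was left out, whereas the mean of all days, -0.30 ± 0.05, held throughout. Slc2a3 read 305 and 320, 442 and 468, 665 and 627, 945 and 889, and 1928 and 1439 in the knockdown. It was called on no day, and its mean difference was -0.03, with a 95% interval from -0.16 to 0.10.

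The enolases did not move together. Eno3 read 3480 and 3637 in the knockdown libraries of day 0, 348 and 265 at day 1, 153 and 140 at day 3, 239 and 294 at day 5, and 253 and 246 at day 7, below both controls on every day but day 1. It passed the test at day 3 (-0.70 ± 0.15, SE; limma adjusted p = 0.0158) and also at day 5 (-0.67 ± 0.15; 0.009937). The day 3 call was lost when control replicate 1 (0.1214) or either knockdown replicate (limma adjusted p = 0.0748 and 0.122) was left out, and that of day 5 when replicate 1 of the control (0.0828) or of the knockdown (0.1448) was. Eno2 read 151 and 102 in the knockdown libraries of day 0, 192 and 251 at day 1, 612 and 668 at day 3, 819 and 953 at day 5, and 857 and 989 at day 7. It was lower than the control at day 0 (-1.18 ± 0.19; limma adjusted p = 0.005763) and higher at day 3 (0.72 ± 0.19; 0.04226). The day 3 call was lost whichever of its 4 libraries was left out (limma adjusted p = 0.1318 to 0.2106), nor with a replicate block (0.05821), and the day 0 call was lost when only the libraries compared were fitted (0.1862). Neural markers summed to 7540 to 7860 in the knockdown and 6998 to 7512 in the control at day 0, and to 12788 to 13369 and 11004 to 11086 at day 3. Their part in the levels of Eno2 was not tested.

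Of the pentose phosphate genes, G6pdx read 2162 and 2190 in the knockdown libraries of day 0, 3295 and 3056 at day 1, 3693 and 3605 at day 3, 3183 and 3480 at day 5, and 3652 and 3750 at day 7. Both libraries lay above the controls at day 0 and below them at days 3, 5 and 7, with log2 fold changes of -0.32 ± 0.09 at day 5 and -0.34 ± 0.09 at day 7 (SE; limma adjusted p = 0.03794 and 0.03726). Each call was lost whichever of its 4 libraries was left out (limma adjusted p = 0.06195 to 0.282 and 0.1514 to 0.1892). Pgd read 5790 and 6214, 7346 and 6396, 5810 and 6038, 6178 and 6443, and 6467 and 6578 in the knockdown. It was lower at day 3 (-0.29; limma adjusted p = 0.0446) and, just past the threshold, at day 5 (-0.26; 0.04975), and each call was again lost whichever of its libraries was left out (0.1385 to 0.2488 and 0.1114 to 0.2714). Pgd at day 3 was lost with the replicate block nested in day (0.05608), and at day 5 with that block (0.05403), with the plain replicate block (0.05484) and with a pseudocount of 0.1 (limma adjusted p = 0.05189).

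Tkt read 4721 and 5070, 4618 and 4037, 3219 and 3239, 3410 and 3685, and 3741 and 3718 in the knockdown, and was called at day 5 (-0.33 ± 0.08; limma adjusted p = 0.0218). That call was lost when either control replicate (limma adjusted p = 0.1531 and 0.06738) or the first of the knockdown (0.1939) was left out. As the mean of all days G6pdx was at -0.16, Pgd at -0.14 and Tkt at -0.20.

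Pgk1 was called at day 7, with 6992 and 7088 in the knockdown and 8921 and 8170 in the control (-0.28 ± 0.07; limma adjusted p = 0.03695). Whichever of the 4 libraries was left out, the call was lost (0.05747 to 0.3321), as it was with the replicate block (0.05123) and the block nested in day (limma adjusted p = 0.06562). On the earlier days Pgk1 read 16027 and 16550, 9331 and 9303, 6942 and 6654, and 6442 and 6926 in the knockdown. Pdha1 was called higher at day 0, with 7304 and 7186 against 6208 and 6232 (0.22 ± 0.06; limma adjusted p = 0.04475), and on the later days read 6615 and 6934, 5445 and 5419, 5468 and 5521, and 6173 and 5949 in the knockdown and 6697 and 7401, 5453 and 5419, 5907 and 5814, and 6297 and 6209 in the control. The day 0 call was lost whichever library was left out (0.0948 to 0.2423), with the replicate block (0.06325) and with the nested block (limma adjusted p = 0.06605).

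The genes around pyruvate dehydrogenase had small differences or none that passed. Pdhb read 1464 and 1413, 1233 and 1180, 1281 and 1195, 1254 and 1350, and 1381 and 1404 in the knockdown, and 1536 and 1519, 1175 and 1368, 1380 and 1229, 1478 and 1410, and 1638 and 1560 in the control, a mean difference of -0.12 ± 0.04 (SE). Pdk1 read 300 and 340, 380 and 333, 610 and 699, 1220 and 1177, and 1389 and 1432 in the knockdown, and its mean difference was 0.04, with a 95% interval from -0.10 to 0.19. Pdk2 read 196 and 212, 89.3 and 76.1, 249 and 209, 354 and 339, and 283 and 326, and Mpc2 533 and 480, 320 and 363, 278 and 262, 304 and 315, and 277 and 286. Neither was called on any day, with mean differences of -0.16 for Pdk2 (95% interval from -0.31 to -0.02) and -0.03 for Mpc2 (-0.15 to 0.09). Outside these genes, Pfkfb2 read 187 and 207, 479 and 511, 590 and 569, 714 and 652, and 675 and 721 in the knockdown, a mean difference of 0.19 ± 0.06 (SE; limma adjusted p = 0.03037).

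By day, 2 members were called at day 0, 1 higher and 1 lower, where 3.31% of all genes were called (2.49% higher, 0.812% lower). At day 1 there were 0 of 36, beside 0.146% of all genes (0.0254 and 0.121%). At day 3 there were 3, 1 higher and 2 lower, beside 4.77% (2.51 and 2.25%). At day 5 there were 6, all lower, beside 8.73% (5.83% higher, 2.9% lower), and at day 7 there were 5, all lower, beside 6.17% (4.65% higher, 1.52% lower). At day 1, where limma called 0 members, 4 had an unadjusted p under 0.05, and 4 were called when control replicate 2 of that day was left out. The median log2 fold change of the members was -0.11, -0.06, -0.07, -0.17 and -0.13 at days 0, 1, 3, 5 and 7, and that of all genes -0.02, -0.00, 0.02, -0.01 and -0.00. At each day and in the mean of all days, the split of directions between arms moved little under both scalings. In the knockdown arm itself, 26 members were called at day 7 against day 0 (9 higher, 17 lower), beside 67.1% of all genes (36.2% higher, 30.9% lower), with 14 and 10 after quantile scaling and 18 and 12 with equal sums.

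**Figure D4:**
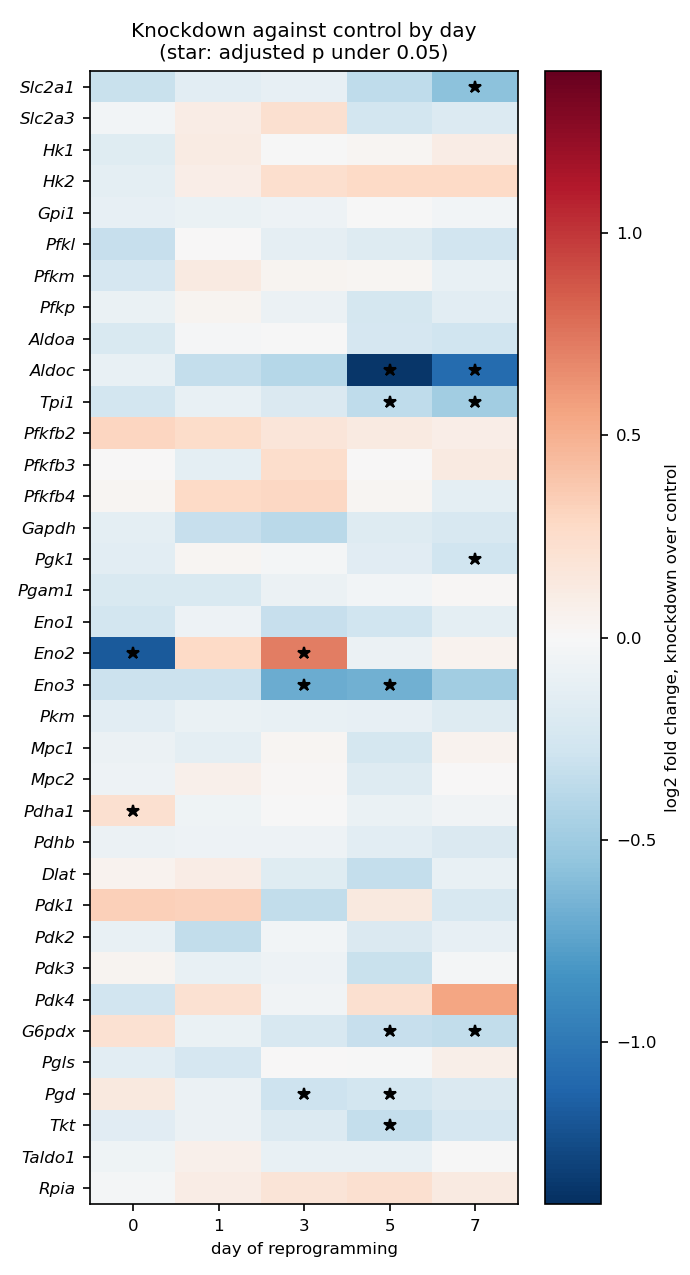
Log2 fold change of knockdown over control for each of the 36 members (rows, in order of role) on each day (columns); blue is lower and red higher in the knockdown, and stars mark an adjusted p under 0.05. The darkest cells are Aldoc at days 5 and 7 (-1.36 and -1.07) and Eno2 at day 0 (-1.18), and the column of day 1 holds no star.

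Whether the course itself differed was asked of the change from day 0 to day 7 in each arm. The change differed for 3 of 36 members, 1 higher and 2 lower, where 6.38% of all genes were called (3.92% higher, 2.46% lower). After quantile scaling the split was 1 and 5, with equal sums 1 and 4. As deposited, the members' median was -0.07 against 0.02 for all genes. Aldoc, a member whose control level rose from 43.2 ± 6.40 to 1717 ± 129 (SD, n = 2), reached 814 ± 26.6 in the knockdown, and its change was smaller by 0.97 on the log2 scale. These 3 members are taken up again among the results for a closer look.

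Genes beside these pathways gave a frame, read against 38.6% of all genes called higher and 33.7% lower in the control at day 7, and 10.3% higher and 7.46% lower as the mean of all days between arms. The splits of these lists under the other scalings were computed after seeing the data. Of 33 other enzymes and transporters of glucose and pyruvate in the table, 11 were higher and 15 lower in the control at day 7 (10 and 16 after quantile scaling, 15 and 12 with equal sums). Pcx, which turns pyruvate into oxaloacetate, had 542 and 558 at day 0 and 5232 and 5444 at day 7, and the transporter Slc2a12 had 51.3 and 48.7, then 348 and 375. As the mean of all days between arms, 3 of the 33 were higher and 2 lower (4 and 2 under either scaling). Of 17 genes of the tricarboxylic acid cycle, which oxidizes the acetyl groups that pyruvate dehydrogenase makes, 2 were higher and 9 lower in the control at day 7, but 6 and 7 after quantile scaling and 9 and 6 with equal sums. As the mean of all days, 1 of the 17 was higher and 8 lower in the knockdown (1 and 8, and 1 and 6, under these scalings). Cs, the citrate synthase that opens the cycle, was at -0.14 ± 0.03 in that mean (SE; limma adjusted p = 0.001572). Of 8 genes of lactate handling, 2 were lower in the mean of all days and 0 higher, under both scalings too. Ldha, which reduces pyruvate to lactate, stood at 13484 and 12398 in the control and 9533 and 9553 in the knockdown at day 7. Slc16a3, an exporter of lactate, stood at 891 and 545 in the control and 65.1 and 74.6 in the knockdown.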

How the data were processed

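A total of 20 messenger RNA libraries of reprogramming cells (2 arms, 5 days, 2 replicates) were analysed. The signal values are normalized read counts deposited by the authors in 1 table of 15757 genes; the sources used here do not give the normalization step, the annotation, the gene filter or strandedness. Per the submitters' processing notes, the tools were DESeq2 1.22.0, RSEM 1.2.22, STAR 2.5.2a and Trim Galore 0.4.4 and the genome mm10, with no role given. Every gene reached at least 7.61 in some library; depth in reads is unknown, and 0 pairs of columns were identical.

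From these, log2(value + 1) was fitted for all 20 libraries by limma 3.58.1 (R 4.3.3; 10 group means, trend and robust; residual degrees of freedom 10, median prior 5.35), after a filter (at least 1 in at least 2 libraries) that removed 0 genes. p-values were adjusted over all genes (Benjamini and Hochberg, threshold 0.05). The script was tested on simulated data. The members, the other lists and the tests were chosen with earlier results of these data known. Values in every library are given for the member with the smallest p of each role in the day 7 and mean-of-days comparisons and for members called between arms on a single day; of other lists, at most 4 genes with the smallest p could be named.

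Shares per kilobase used the length of all exons annotated for a gene joined together (GENCODE, mm10), not that of the transcript expressed. The size of a share and the order of isozymes therefore depend on the annotation. Copies were sought with BLAST 2.17.0, and promoters came from RefSeq (35 of 36 members matched). Exons of 12 members, Slc2a1, Aldoa, Tpi1, Pfkfb2, Gapdh, Pdha1 and G6pdx among them, overlap a gene on the opposite strand, 10 of them in the table, so reads there cannot be told apart without strand. Alternatives were quantile scaling, equal library sums, pseudocounts of 0.1 and 5, no filter, a mean of at least 10, a replicate block, the block nested in day, library weights, only the libraries compared, and leaving out each library.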

Additional observations from a re-analysis of the deposited data

Results flagged for a closer look

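In 3 members the change from day 0 to day 7 differed between the arms by limma's test of the difference itself (6.38% of all genes passed it). For Aldoc the change was smaller in the knockdown by 0.97 ± 0.26 on the log2 scale, that is -0.97 (SE; limma adjusted p = 0.04008): both arms rose, to 1808 and 1625 in the control and 833 and 796 in the knockdown. For Eno2 it was larger by 1.23 ± 0.27 (SE; limma adjusted p = 0.01461), and here the arms differed at day 0 (323 and 246 against 151 and 102) and overlapped at day 7 (824 and 959 against 857 and 989). For G6pdx the difference was -0.55 ± 0.13 (SE; limma adjusted p = 0.02095), with the knockdown above the control at day 0 (2162 and 2190 against 1924 and 1840) and below it at day 7 (3652 and 3750 against 4689 and 4683).

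None of the 3 was called in every fit that left out a library. Aldoc lost its call in 7 of 8 such fits (limma adjusted p = 0.06628 to 0.149) and G6pdx in 6 (0.05239 to 0.0749). Eno2 lost it without control replicate 1 of day 0 (0.05966), control replicate 1 of day 7 (0.07236) or knockdown replicate 2 of day 7 (limma adjusted p = 0.07537). All 3 held under the other alternatives run.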

How the results depend on the processing

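Along the days, scaling limited most what can be said of direction. In the control at day 7, values turned positive after quantile scaling for Gpi1 (0.49), Aldoa (0.34), Tpi1 (0.43), Gapdh (0.71), Pkm (0.82) and Tkt (0.081), and with equal sums for Gpi1 (0.30), Pfkm (0.30), Tpi1 (0.24), Pfkfb3 (0.25) and Tkt (0.11). The count of members called moved by over 1.5 times in these cases: with only the libraries compared, 15 at day 1 of the control course, and between arms 0 at day 0, 5 at day 3 and 12 at day 7; with library weights, 5 at day 3, 11 at day 7 and 5 for the difference between arms in the change; with a pseudocount of 5, 1 at day 0; and for that difference, 6 after quantile scaling and 5 with equal sums. The cause was not tested. With a replicate block, and with the replicate block nested in day, 1 member was called at day 0. Taken over all genes alike, the difference between replicates 1 and 2 was nearly uncorrelated between the arms (r = -0.050, 0.084, 0.016, 0.005 and 0.025 at days 0, 1, 3, 5 and 7). Single members could still deviate the same way. At day 1 Gapdh read 87363 and 53597 in the control and 58207 and 51781 in the knockdown, while Hk2 went opposite ways (1785 and 1954, then 2076 and 1919). Whether same-numbered libraries were handled together is not labelled and was not tested. Leaving out each library in turn gave 18 to 26 members at day 1 of the control course, 25 to 27 at day 3, 24 to 26 at day 5, 22 to 24 at day 7 and 25 to 26 in the knockdown at day 7. Between arms it gave 1 at day 0, 0 to 4 at day 1, 0 to 1 at day 3, 1 to 4 at day 5, 2 to 3 at day 7, 10 to 18 for the mean of all days and 0 to 2 for the difference. Between arms at day 5, 1 member was left without control replicate 1 or knockdown replicate 1. With 1 library left in a group, the lone library is assumed to vary like the other groups.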

Other observations

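Among 17 regulators of glucose use, 10 were higher and 4 lower in the control at day 7 (9 and 4 after quantile scaling, 13 and 3 with equal sums, splits computed after seeing the data), and 1 was higher and 3 lower in the knockdown as the mean of all days (the same counts under both scalings). Of all genes, 38.6% were higher and 33.7% lower in the former comparison, and 10.3% and 7.46% in the latter. Txnip, which restrains glucose uptake, read 3531 and 3513 in the controls of day 0 and 5163 and 5091 at day 7, and 2904 and 2841, then 3179 and 2934 in the knockdown. Its mean difference was -0.38 ± 0.03 (SE; limma adjusted p = 5.867e-06). Nfe2l2, a factor known for inducing genes of NADPH supply, read 1962 and 1975 at day 0 and 4680 and 4425 at day 7 in the control, and 3934 and 3733 in the knockdown at day 7. Its mean difference was -0.11 ± 0.03 (SE; limma adjusted p = 0.007655). Ppargc1a, a coactivator of mitochondrial genes, was near the lower end of the table at day 0 of the control, with 1.06 and 0.824, and stood at 166 and 216 at day 7.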
